A study of Mus musculus with 96 samples.

Results

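The genes described here are Sec14l3, Cpne9, Slc4a11, Tmprss6, Mas1, Atp6v1c2, Vwa7 and Serpinb1b, 8 of the 48795 genes in the deposited tables. They were chosen by name as the genes with the largest falls in the striatum of Q140 mice that belong to no list of neuronal identity genes. The striatal effect of Q140 therefore chose them, and it is given below as a description, without a test. All 8 passed the filter on low counts in striatum, and 5 of them passed it in cortex.

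RNA was sequenced from the cerebral cortex and corpus striatum of 48 mice on a C57BL/6 background, dissected at 6 months of age, giving 96 libraries. The 6 genotypes were wild type, Msh6+/-, Msh6-/-, Q140, Q140 Msh6+/- and Q140 Msh6-/-, with 8 mice each, 4 males and 4 females. Q140 mice were heterozygous for a knock-in allele of Htt, the Huntington's disease gene, that carries an expanded CAG repeat and is expressed from the gene's own locus. Msh6 encodes a DNA mismatch recognition subunit, and the cross sets the effect of Q140 beside the loss of 1 or both Msh6 alleles. Each library is labelled with 1 animal number, and whether mice shared a litter is not stated.

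Library totals ran from 12.4 to 22.9 M counts, and the filter left 17503 genes for the striatal tests and 17622 for the cortical ones. Msh6 transcript was at 14.6 to 20.1 CPM (counts per M counts, TMM-scaled) in striata with both alleles and 6.93 to 11.1 CPM in striata with none. Striata of Msh6+/- mice (13.8 ± 1.3 CPM, SD) overlapped those of wild-type mice (17.4 ± 1.28 CPM). Htt lay at 206 to 229 CPM in Q140 striata and 225 to 247 CPM in wild-type striata. The striatum showed its defining markers: 18 genes of striatal projection neurons, such as Ppp1r1b, Drd1 and Penk, summed to 19300 to 24300 CPM in mice without Q140, against 1280 to 1540 CPM in all cortices. The striatal library of mouse 21-3 (Q140 Msh6-/-) stood apart, with 8 choroid plexus markers summing to 2830 CPM against at most 53.7 CPM in any other striatum. Comparisons that include it were also computed without it.

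The striatum is made up mainly of GABAergic projection neurons that receive dopamine and cortical glutamate, and these cells are the most vulnerable in Huntington's disease. Expanded huntingtin lowers many of the transcripts by which they are recognised. The genes here fall into several other protein families. Sec14l3 belongs to the SEC14-like proteins, which bind hydrophobic lipids, and Cpne9 to the copines, which bind membranes when calcium rises. Slc4a11 is a membrane transporter of the bicarbonate transporter family, known for its role in the corneal endothelium. Atp6v1c2 is an isoform of a subunit of the vacuolar proton pump (V-ATPase) that acidifies vesicles. Mas1 is a G protein-coupled receptor of the protective arm of the renin-angiotensin system. Tmprss6 is a membrane-anchored serine protease that restrains hepcidin, the iron hormone, in liver, and Serpinb1b is an intracellular inhibitor of serine proteases. Vwa7 carries a von Willebrand factor A domain and has no well-described function.

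In the GENCODE annotation of GRCm38 the 8 protein-coding genes lie on 7 chromosomes. Sec14l3 (ENSMUSG00000054986) lies at chr11:4064841-4077736, Cpne9 (ENSMUSG00000030270) at chr6:113282307-113305627 and Slc4a11 (ENSMUSG00000074796) at chr2:130684113-130697519. Tmprss6 (ENSMUSG00000016942) lies at chr15:78439667-78468634 and Atp6v1c2 (ENSMUSG00000020566) at chr12:17284721-17329359. Serpinb1b (ENSMUSG00000051029) lies at chr13:33078575-33094380, inside a cluster with its near copies Serpinb1a and Serpinb1c. Mas1 (ENSMUSG00000068037, chr17:12841079-12868143) and Vwa7 (ENSMUSG00000007030, chr17:35016579-35026741) share chromosome 17 with Msh6, at 75.1 and 53.0 Mb from it.

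Promoter windows of 300 bases (250 before to 50 after the RefSeq start, GRCm38.p6) were matched for 6 of the 8 genes, all but Slc4a11 and Tmprss6. The upstream 250 bases are printed for Cpne9 and Mas1, the pair with more transcript in cortex than in striatum (below), and for Sec14l3, the gene with the largest excess in striatum. Each is written 5′ to 3′ on the gene's own strand, with CCAAT, or ATTGG where the motif lies on the other strand, in capitals. They span chr6:113282057-113282306 (plus strand), chr17:12868144-12868393 (minus strand) and chr11:4064603-4064852 (plus strand).
Cpne9: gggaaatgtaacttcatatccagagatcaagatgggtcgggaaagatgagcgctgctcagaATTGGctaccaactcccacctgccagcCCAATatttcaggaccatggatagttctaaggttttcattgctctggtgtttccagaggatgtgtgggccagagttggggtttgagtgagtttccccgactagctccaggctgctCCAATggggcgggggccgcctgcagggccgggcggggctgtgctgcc
Mas1: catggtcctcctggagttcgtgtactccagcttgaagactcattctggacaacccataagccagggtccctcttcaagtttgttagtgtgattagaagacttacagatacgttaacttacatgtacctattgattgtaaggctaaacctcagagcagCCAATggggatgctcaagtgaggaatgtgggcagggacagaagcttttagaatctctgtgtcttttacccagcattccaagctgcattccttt
Sec14l3: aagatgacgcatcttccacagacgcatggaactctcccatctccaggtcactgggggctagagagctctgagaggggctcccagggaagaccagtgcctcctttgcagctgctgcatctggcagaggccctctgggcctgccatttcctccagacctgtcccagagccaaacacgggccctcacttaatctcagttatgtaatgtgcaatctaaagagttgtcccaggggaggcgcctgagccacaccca
CCAAT, a box bound by the factor NF-Y, was found in 3 of the 6 windows (Cpne9, Mas1 and Serpinb1b), against 37.36% of 32544 mouse promoter windows of the same length. In Cpne9 it begins 189, 162 and 47 bases before the start, in Mas1 93 bases before it. Both strands were also searched for TGACGTCA (the cyclic AMP response element), CACGTG (an E-box) and TATAAA. These letters were in 0 of the 6 windows, against 1.8%, 7.17% and 13.57% of all windows. The windows differ in base composition, from 43.3% G and C in Serpinb1b and 46.0% in Mas1 to 66.0% in Atp6v1c2 and 66.3% in Vwa7, around a median of 53.0% over all windows.

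In striatum all 8 genes were lower in Q140 mice than in wild-type mice, with 24.3% to 34.4% of the wild-type level left. Their log2 fold changes ran from -1.54 to -2.04, with a median of -1.78 against 0.014 over all genes tested. Over all genes, 14.2% were called lower at an adjusted p under 0.05, a share given for scale only, since the genes were chosen on this contrast. In each of the 8 genes the 8 Q140 mice all lay below the 8 wild-type mice, as they did in 4.21% of all genes. Bulk tissue cannot tell fewer cells of a type from less RNA per cell.

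**Figure D1:**
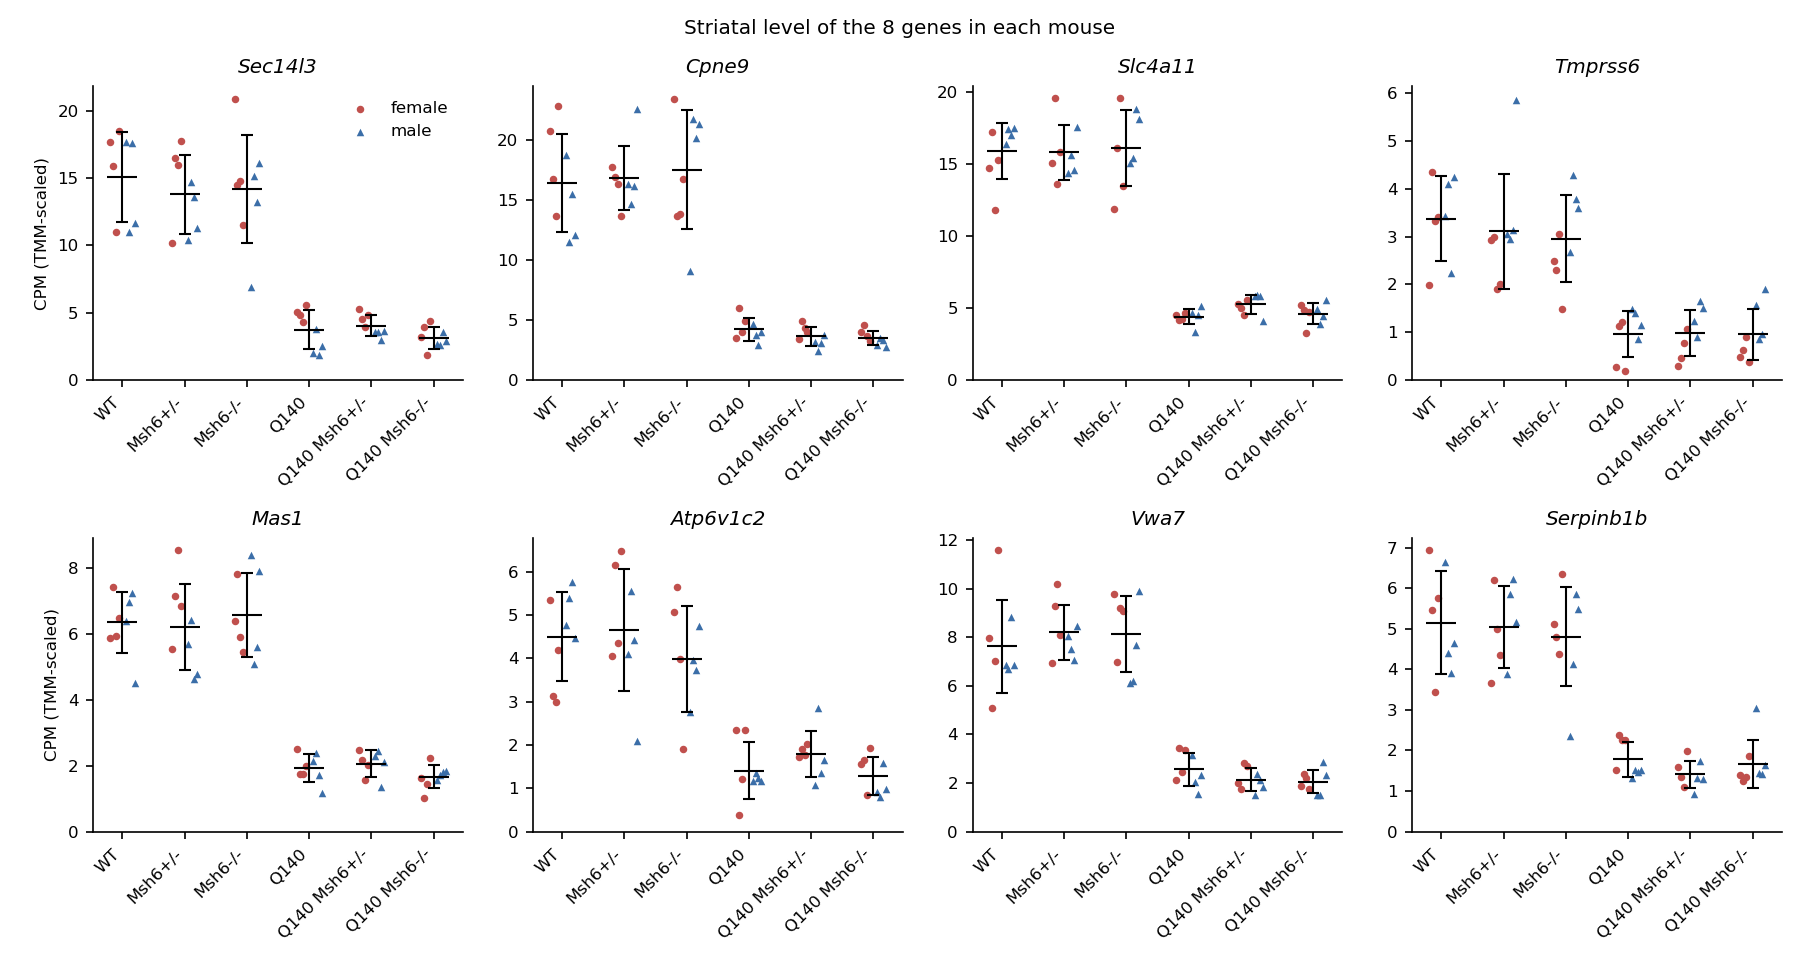
Striatal level of each gene (CPM, linear axis from 0) in every mouse of the 6 genotypes, females as circles and males as triangles, with the mean and SD of 8 mice in black. In Sec14l3, Cpne9, Slc4a11, Mas1 and Vwa7 the 24 mice with Q140 all lie below the 24 mice without it, while in Tmprss6, Atp6v1c2 and Serpinb1b a few mice of the 2 sets overlap.

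The lipid-binding Sec14l3 ranged over 11.0, 16.8 and 18.5 CPM (lowest, median and highest of 8) in wild-type striata and over 1.85, 4.07 and 5.55 CPM in Q140 striata. The log2 fold change was -2.04 ± 0.17 (SE), the largest of the 8. The highest of the 24 mice with Q140 stood at 5.55 CPM and the lowest of the 24 without it at 6.93 CPM, so the sets did not overlap. Cpne9, the copine, had 11.5, 16.1 and 22.8 CPM in wild-type and 2.89, 4.02 and 5.96 CPM in Q140 striata, a log2 fold change of -1.97 ± 0.16. Its sets were further apart, at 5.96 CPM against 9.09 CPM. The lowest mouse without Q140 was 24-3 (Msh6-/-) for both genes.

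The transporter Slc4a11 was the most even of the 8 within groups, with 11.8, 16.7 and 17.5 CPM in wild-type and 3.34, 4.51 and 5.13 CPM in Q140 striata. Its log2 fold change was -1.85 ± 0.10, and the highest mouse with Q140 (5.91 CPM) was below the lowest mouse without it (11.8 CPM). Atp6v1c2, the pump subunit, was lower and more scattered: 3.00, 4.61 and 5.75 CPM in wild-type and 0.376, 1.22 and 2.35 CPM in Q140 striata. It changed by -1.68 ± 0.23 on the log2 scale, and 6 of the 24 mice with Q140 reached the lowest mouse without it (32-1, Msh6-/-, 1.9 CPM).

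The receptor Mas1 had 4.52, 6.45 and 7.42 CPM in wild-type and 1.16, 1.88 and 2.51 CPM in Q140 striata, with a log2 fold change of -1.71 ± 0.14. No mouse with Q140 was above 2.51 CPM and no mouse without it was below 4.52 CPM. Vwa7 had 5.08, 6.95 and 11.6 CPM in wild-type and 1.56, 2.4 and 3.45 CPM in Q140 striata (-1.58 ± 0.14). Its sets were separate too, at 3.45 against 5.08 CPM.

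Tmprss6, the hepcidin-restraining protease, was the least abundant of the 8, with 1.98, 3.42 and 4.36 CPM in wild-type and 0.2, 1.14 and 1.48 CPM in Q140 striata. This is 37 to 80 reads per wild-type library and 4 to 29 per Q140 library. The log2 fold change was -1.85 ± 0.24, and 4 of the 24 mice with Q140 reached the lowest mouse without it (1.48 CPM). Serpinb1b, the protease inhibitor, had 3.44, 5.05 and 6.95 CPM in wild-type and 1.33, 1.52 and 2.38 CPM in Q140 striata (-1.54 ± 0.18). Of its 24 mice with Q140, 2 reached the lowest mouse without it (24-3, Msh6-/-, 2.36 CPM). The higher of them was mouse 21-3 at 3.04 CPM, the library with the choroid plexus markers.

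Over all 24 mice with Q140 against all 24 without it, Cpne9 kept the smallest share of its level, 22.4% (3.78 ± 0.814 against 16.9 ± 3.86 CPM, SD). Sec14l3 kept 25.4%, Vwa7 28.2%, Mas1 29.5%, Slc4a11 29.9%, Tmprss6 30.8% and Serpinb1b 32.4%. Atp6v1c2 kept the most, 34.1% (1.49 ± 0.567 against 4.38 ± 1.21 CPM). The 2 sets of 24 did not overlap in 5 of the 8 genes, and over all genes tested 2.01% had every mouse with Q140 below every mouse without it. Without mouse 21-3 the count was also 5 of 8.

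Of the genes called lower in Q140 striatum, 2301 had an average log2 CPM of 1 or more, and among these the 8 stood at ranks 3 to 14 by log2 fold change. Gpx6 (-2.28) and Ddit4l (-2.15) stood above them. Ryr1, Phex, Abhd11os and a predicted gene were ranked between them. The last of the 8, Serpinb1b at -1.54, was followed by Egr2 at -1.5 and Plk5 at -1.44, so no gap in the values sets the group off.

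The fall was also present in mice that lacked 1 or both Msh6 alleles, compared with mice of the same Msh6 genotype. In the Q140 Msh6+/- against Msh6+/- mice the log2 fold changes ran from -1.36 (Atp6v1c2) to -2.21 (Cpne9), with a median of -1.72. In the Q140 Msh6-/- against Msh6-/- mice they ran from -1.51 (Serpinb1b) to -2.33 (Cpne9), with a median of -1.88. Called lower over all genes were 14.9% and 15.2%. Sec14l3 had -2.04, -1.76 and -2.18, Cpne9 -1.97, -2.21 and -2.33, and Slc4a11 -1.85, -1.58 and -1.80 at 2, 1 and 0 Msh6 alleles. Vwa7 had -1.58, -1.94 and -1.98, and Tmprss6 -1.85, -1.69 and -1.63. Mas1 had -1.71, -1.57 and -1.97, Atp6v1c2 -1.68, -1.36 and -1.65, and Serpinb1b -1.54, -1.85 and -1.51. The SE of these values was 0.10 to 0.25, and because they come from the contrasts that chose the genes their differences were not tested.

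The loss of Msh6 itself was compared within mice of the same Htt genotype. In striatum 0 of the 8 genes were called in any of the 4 comparisons with edgeR, with DESeq2 or with limma-trend. Over all genes the called shares were 0.0114% (Msh6+/- against wild type), 0.0971% (Msh6-/- against wild type), 0.00571% (Q140 Msh6+/- against Q140) and 0.177% (Q140 Msh6-/- against Q140). These comparisons share mice with the contrasts that chose the genes.

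**Figure D2:**
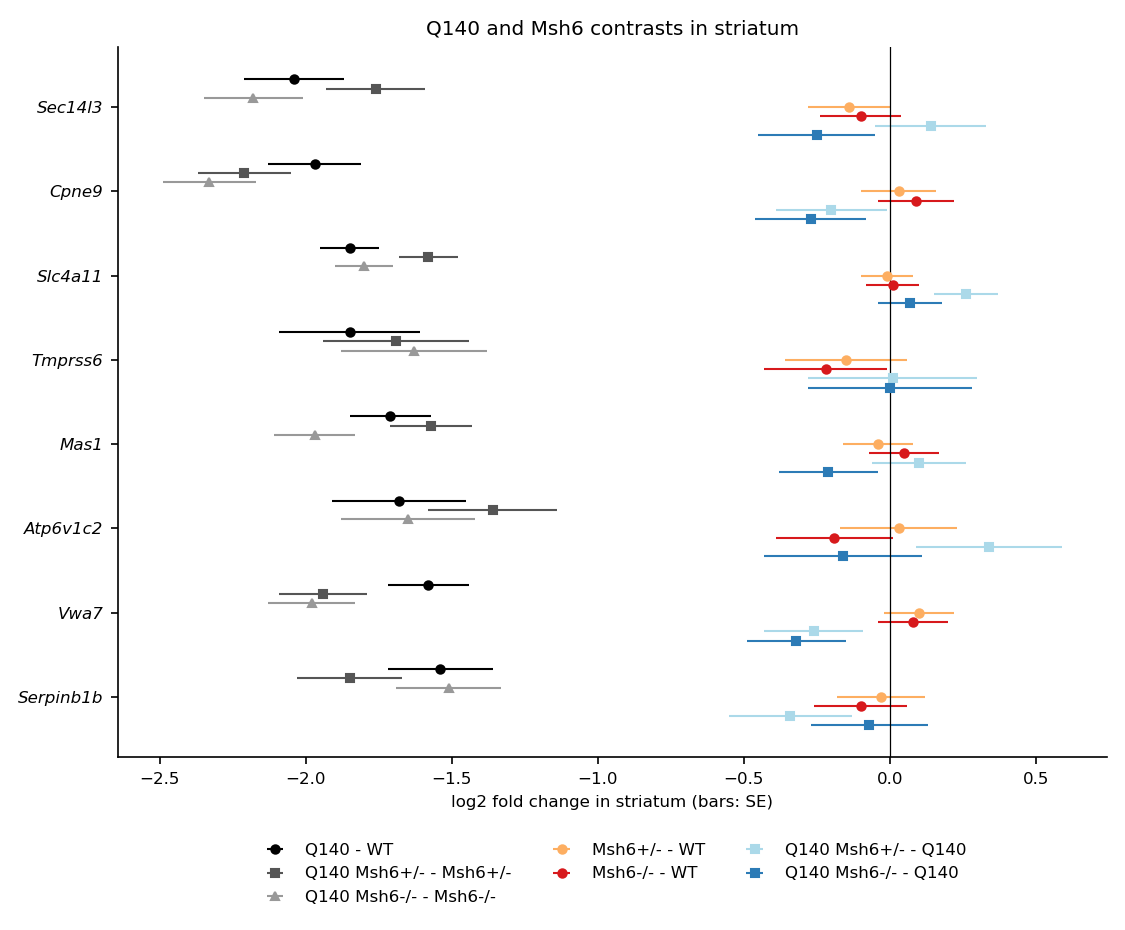
Log2 fold change in striatum (x axis; bars are SE) of the 8 genes for 3 comparisons of mice with and without Q140 (black and grey) and 4 comparisons of Msh6 genotypes (colours). The Q140 values lie between -1.36 and -2.33, and the Msh6 values between -0.34 and 0.34.

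In mice without Q140 the Msh6 log2 fold changes of the 8 genes lay between -0.22 and 0.10. Slc4a11 was the most tightly bounded, at 0.01 ± 0.09 in Msh6-/- against wild-type mice, with a 95% interval from -0.16 to 0.18. On the Q140 background they lay between -0.34 (Serpinb1b) and 0.34 (Atp6v1c2), both in Q140 Msh6+/- against Q140 mice. At an unadjusted p under 0.05 the 4 comparisons gave 992, 1121, 753 and 957 of all 17503 genes. Among the 8 genes they gave 0, 0, 1 and 0 hits. The 1 was Slc4a11 in Q140 Msh6+/- against Q140 mice (0.26 ± 0.11; 4.4 ± 0.526 CPM in Q140 and 5.25 ± 0.675 CPM in Q140 Msh6+/- mice, SD, n = 8; edgeR adjusted p = 0.998). In Q140 Msh6-/- against Q140 mice 6 of the 8 were negative, led by Vwa7 at -0.32 ± 0.17 (edgeR adjusted p = 0.929). Its 95% interval of -0.65 to 0.02 shows the size of change that 8 mice per group could not resolve. Without mouse 21-3 the count of called genes in that comparison was also 0.

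The 2 tissues were compared next, in wild-type mice, whose striata also entered the contrast that chose the genes. Of the 5 genes that passed the filter in both tissues, 3 (Slc4a11, Vwa7 and Atp6v1c2) were called higher in striatum and 2, Cpne9 and Mas1, lower. Over all 18440 genes tested 35.9% were called higher and 36.5% lower in striatum. The same 3 were called higher and the same 2 lower in Msh6-/- mice (35.9% and 36.4% of all genes). Sec14l3, Tmprss6 and Serpinb1b entered the fit only through their striatal counts, which fixes the direction, so their tissue differences are given as values.

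**Figure D3:**
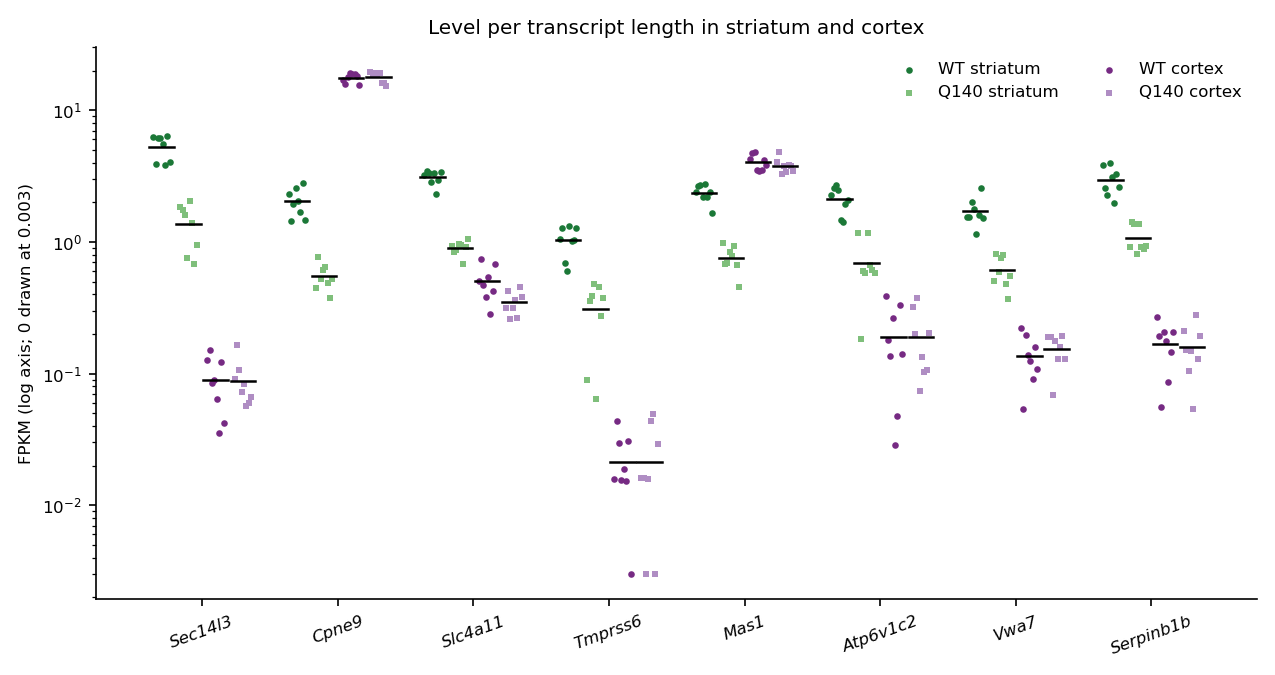
Level per transcript length (FPKM, log axis, with values of 0 drawn at the bottom) of the 8 genes in wild-type and Q140 striatum (greens) and cortex (purples), 1 point per mouse and black lines at the means. Cpne9 and Mas1 are higher in cortex, all 8 are lower in Q140 than in wild-type striatum, and the cortical points of wild-type and Q140 mice overlap.

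Per transcript length (the deposited FPKM), Sec14l3 was the most abundant of the 8 in wild-type striatum, at 5.29 ± 1.15 FPKM (SD, n = 8), above 54.3% of the genes tested. Slc4a11 (3.1 FPKM) and Serpinb1b (2.96 FPKM) came next. Mas1 (2.37 FPKM), Atp6v1c2 (2.12 FPKM), Cpne9 (2.03 FPKM) and Vwa7 (1.72 FPKM) followed, and Tmprss6 came last at 1.03 FPKM, above 22.5% of the genes. Neighbours in this order overlapped between mice, except Sec14l3 and Slc4a11. In wild-type cortex the order was different: Cpne9 led at 17.7 FPKM, above 82.7% of the genes tested there, and Mas1 followed at 4.03 FPKM. The other 6 had 0.0212 (Tmprss6) to 0.504 FPKM (Slc4a11).

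Sec14l3 had the largest excess in striatum: 15.1 ± 3.32 CPM against 0.251 ± 0.116 CPM in cortex (SD, n = 8), a log2 difference of 5.83 ± 0.22 (SE), which ran from 4.83 to 5.87 over the alternative settings. Its cortical level rested on 2 to 9 reads per wild-type library. Tmprss6 differed by 5.47 ± 0.35, with 0 to 3 reads per wild-type cortex, and its value ran from 3.19 to 5.63 over the settings. Serpinb1b differed by 4.13 ± 0.23 (3.53 to 4.17). Of the genes tested in both tissues, Vwa7 differed by 3.64 ± 0.18 (2.94 to 3.66 over the settings), Atp6v1c2 by 3.45 ± 0.26 and Slc4a11 by 2.63 ± 0.11.

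Cpne9 went the other way, with 16.4 ± 4.06 CPM in wild-type striatum and 140 ± 11.5 CPM in cortex (-3.12 ± 0.09, edgeR adjusted p = 6.88e-53). Every wild-type cortex (123 to 152 CPM) was above every wild-type striatum (11.5 to 22.8 CPM). Mas1 had 6.36 ± 0.934 CPM in striatum and 10.6 ± 1.43 CPM in cortex (-0.77 ± 0.10, edgeR adjusted p = 1.18e-11), and these ranges did not overlap either.

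The tissue difference of Q140 mice includes the striatal fall by which the genes were chosen, and is given as values. Sec14l3 was 3.87 ± 0.26 higher in Q140 striatum, Slc4a11 1.32 ± 0.14 and Vwa7 1.90 ± 0.20 on the log2 scale. Cpne9 was -5.08 ± 0.11 and Mas1 -2.37 ± 0.12. In Q140 Msh6-/- mice Tmprss6 had at most 1 read in any cortical library, and no difference of size is given for it. The cortex held 11 markers of cortical glutamatergic neurons at 2590 to 2950 CPM, against 146 to 226 CPM in striata without Q140 and 152 to 223 CPM in striata with it. Their part in the striatal Cpne9 and Mas1 levels was not tested.

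In cortex, Q140 called 0 of the 5 genes that passed the filter, in any of the 3 comparisons, with edgeR or limma-trend. DESeq2 gave an adjusted p to 1, 1 and 5 of the 5 and also called 0. Over all genes 0.017% (3 genes), 0.193% (34 genes) and 0.136% (24 genes) were called in either direction, for mice with 2, 1 and 0 Msh6 alleles. At 2 alleles edgeR called 3 genes higher and 0 lower, while DESeq2 called 0 higher and 8 lower. At an unadjusted p under 0.05 the 5 genes gave 1, 1 and 2 hits, and all 17622 genes tested gave 1081, 2094 and 945. Sec14l3, Tmprss6 and Serpinb1b were too low for the filter. With no filter all 8 were tested and 0 were called.

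The hit against wild type was Slc4a11. It ranged over 1.44, 2.45 and 3.74 CPM in wild-type and 1.31, 1.68 and 2.27 CPM in Q140 cortex, a log2 fold change of -0.53 ± 0.16 (edgeR adjusted p = 0.377), and the groups overlapped. In Q140 Msh6+/- and Q140 Msh6-/- mice against their controls it was -0.16 ± 0.15 and -0.12 ± 0.16. Cpne9 was level in Q140 against wild-type cortex, at 140 ± 13.5 and 140 ± 11.5 CPM (-0.01 ± 0.04, 95% interval -0.09 to 0.08). Mas1 was at 9.92 ± 1.31 and 10.6 ± 1.43 CPM (-0.10 ± 0.07, 95% interval -0.25 to 0.05). For these genes a cortical change of the striatal size lies outside the interval.

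The low cortical genes were less well bounded. Atp6v1c2 had -0.07 ± 0.34 against wild type (95% interval -0.74 to 0.6), 0.09 ± 0.31 when both groups were Msh6+/-, and -0.77 ± 0.35 when both were Msh6-/- (edgeR adjusted p = 0.871). Vwa7 had 0.16 ± 0.24 (95% interval -0.32 to 0.64), 0.52 ± 0.23 (edgeR adjusted p = 0.346) and 0.05 ± 0.24. The striatal values of Atp6v1c2 and Vwa7 against wild type (-1.68 and -1.58) still lie outside these intervals. Of the genes under the filter, Sec14l3 had 0.251 ± 0.116 CPM in wild-type and 0.245 ± 0.101 CPM in Q140 cortex, and Serpinb1b 0.285 ± 0.118 and 0.269 ± 0.116 CPM. Tmprss6 had 0 to 3 reads in each library of both groups, where a difference was not detectable at this depth.

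Msh6 genotype called 0 of the 5 genes in cortex in any of its 4 comparisons (edgeR, DESeq2 and limma-trend). Over all genes 0.00567%, 0.131%, 0.0113% and 0.153% were called, in the order used for striatum. At an unadjusted p under 0.05 the 4 comparisons gave 581, 589, 1388 and 1225 of all 17622 genes. Among the 5 genes they gave 0, 1 (Slc4a11 in Msh6-/- against wild-type mice, -0.32 ± 0.15), 0 and 1 hits. The last was Cpne9 in Q140 Msh6-/- against Q140 cortex, 125 ± 10.7 against 140 ± 13.5 CPM (-0.15 ± 0.04, edgeR adjusted p = 0.26). The groups overlapped, at 109 to 145 and 119 to 154 CPM. In Q140 Msh6-/- against Msh6-/- cortex it was -0.13 ± 0.04 (edgeR adjusted p = 0.616).

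Sex was balanced within every genotype and gave differences in 3 of the 8 genes. In striatum Sec14l3 was higher and Tmprss6 lower in females, where 3.11% and 2.43% of all genes were called higher and lower. In cortex Cpne9 was higher in females, where 3.48% of genes were called higher and 2.83% lower.

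**Figure D4:**
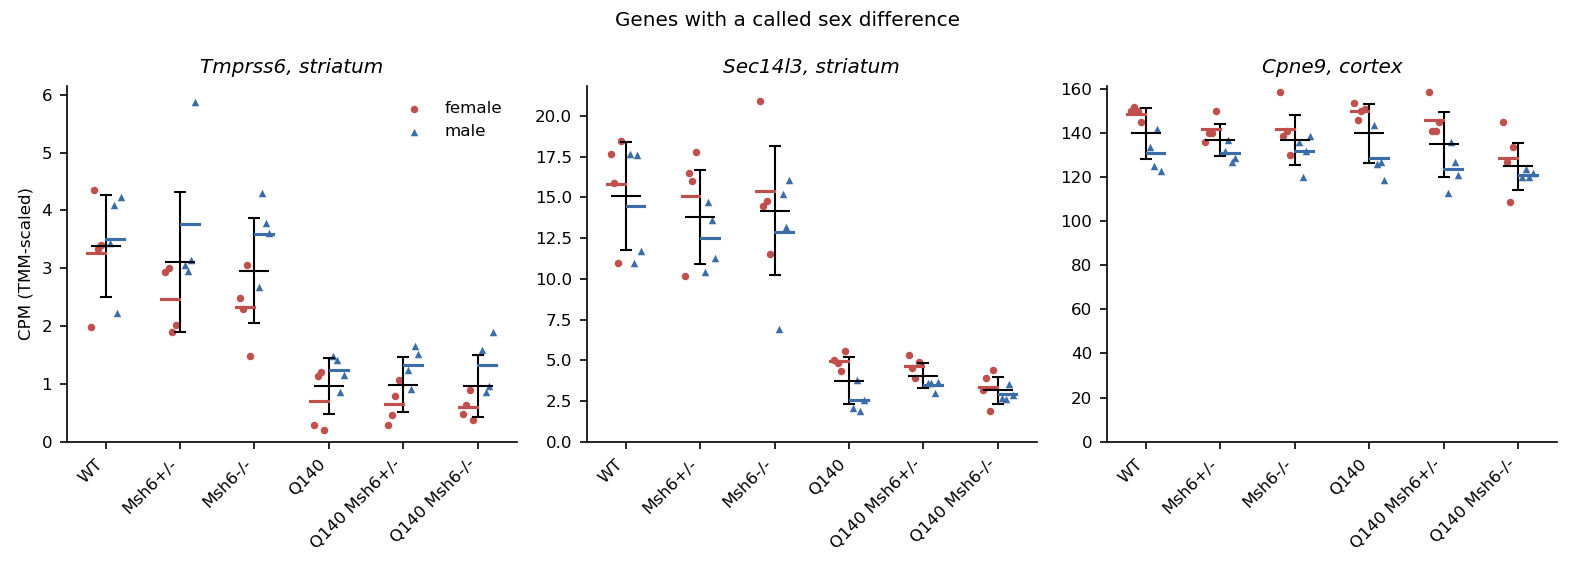
Level (CPM, linear axis from 0) of Tmprss6 and Sec14l3 in striatum and Cpne9 in cortex by genotype, females as circles and males as triangles, with coloured lines at the mean of each sex and black marks at the mean and SD of 8 mice. The mean of males is above that of females for Tmprss6 in 6 of 6 genotypes, and below it for Sec14l3 and Cpne9 in 6 of 6.

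Tmprss6 had 2.69 ± 0.81 CPM in females and 3.62 ± 0.953 CPM in males without Q140 (SD, n = 12 each), and 0.649 ± 0.357 and 1.29 ± 0.349 CPM with it. The log2 difference, female against male over all genotypes, was -0.62 ± 0.14 (edgeR adjusted p = 0.00374). Sec14l3 had 15.4 ± 3.24 CPM in females and 13.3 ± 3.19 CPM in males without Q140, and 4.31 ± 1.01 and 2.98 ± 0.657 CPM with it. Its log2 difference was 0.33 ± 0.09 (edgeR adjusted p = 0.0295).

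In cortex Cpne9 had 143 ± 10.9 CPM in 24 females and 128 ± 8.18 CPM in 24 males (0.16 ± 0.03, edgeR adjusted p = 4.64e-05). In striatum its sex difference was 0.14 ± 0.09 (edgeR adjusted p = 0.396). The remaining genes tested gave adjusted p-values above the threshold in both tissues, and Vwa7 in striatum (0.18 ± 0.08) had an edgeR adjusted p of 0.208.

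The striatal effect of Q140 was not shown to differ by sex for any of the 8. In the test of that difference 0 of the 8, and 0.0% of all genes, were called with edgeR, and DESeq2 and limma-trend also called 0 of the 8. At an unadjusted p under 0.05 there were 0 of the 8 and 593 genes in all. Tmprss6 came closest, with 24.1% of its level left in females and 35.7% in males (difference of log2 fold changes -0.55 ± 0.29, 95% interval -1.13 to 0.03). Sec14l3 kept 27.9% in females and 22.4% in males.

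The relatives of these genes moved in both directions. The 9 lists of family and pathway genes, without the 8 themselves, were counted in Q140 against wild-type striatum, where 15.5% of all genes were called higher and 14.2% lower. On the deposited FPKM scale the same contrast gave 5370 genes higher and 1509 lower in place of 2719 and 2482, with the median of all genes at 0.082. The family genes named here kept their sign under each alternative run for this contrast.

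Among SEC14-like lipid transfer genes 3 of 8 tested were called lower and 0 higher, against 2 lower and 2 higher on the FPKM scale. Sec14l1 fell from 460 ± 27.1 to 322 ± 12.2 CPM (-0.51 ± 0.03, edgeR adjusted p = 8.36e-20), with no overlap between 423 to 501 and 304 to 344 CPM. Sec14l2 (-0.26 ± 0.05) and Clvs1 (-0.15 ± 0.06), a clavesin of neuronal endosomes, were the others. At 1 and 0 Msh6 alleles Clvs1 was not called (-0.06 ± 0.06 and -0.09 ± 0.06). Of 8 copines, 1 fell (Cpne2, -0.31 ± 0.09) and 1 rose (Cpne1, 0.32 ± 0.12). Cpne1 was not called without the filter, nor in the Q140 mice with 1 or 0 Msh6 alleles against their controls (0.00 ± 0.12 and 0.20 ± 0.12). Both changes were smaller on the log2 scale than that of Cpne9, which was chosen for its size.

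Of 6 bicarbonate and borate transporters tested, 3 rose and 1 fell. Slc4a4, the sodium bicarbonate cotransporter of astrocytes, fell from 408 ± 23.4 to 328 ± 10.7 CPM (-0.32 ± 0.04, edgeR adjusted p = 1.15e-08). Slc4a10 (0.20 ± 0.04), a neuronal bicarbonate transporter, and Slc4a7 (0.19 ± 0.05) rose.

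The V-ATPase list went the other way from Atp6v1c2, with 9 of 19 tested genes higher and 1 lower. Atp6ap1, an accessory subunit, rose from 224 ± 7.28 to 268 ± 7.95 CPM (0.26 ± 0.03, edgeR adjusted p = 1.18e-11), and Atp6v1a, the catalytic subunit, from 248 ± 9.61 to 293 ± 7.66 CPM (0.24 ± 0.02). Atp6v1c1, the other isoform of the subunit that Atp6v1c2 encodes, had 141 ± 4.2 CPM in wild-type and 148 ± 3.79 CPM in Q140 striata (0.07 ± 0.03, edgeR adjusted p = 0.0426). It far exceeds Atp6v1c2 in CPM in both groups. The single member that fell was Atp6v0a2 (-0.13 ± 0.03), and on the FPKM scale 0 were called lower.

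In the renin-angiotensin list 3 of 13 tested genes were higher and 1 lower. Ace, the converting enzyme that forms angiotensin peptides, fell from 58.2 ± 8.1 to 37.3 ± 3.12 CPM (-0.64 ± 0.14, edgeR adjusted p = 0.000387), with 33.8 to 43.9 CPM in Q140 mice below the wild-type range of 49.3 to 74.0. Mme (0.20 ± 0.07), the peptidase neprilysin, and Atp6ap2 (0.21 ± 0.04), the prorenin receptor, rose. Mme was not called at 1 Msh6 allele (0.12 ± 0.07) and was called higher at 0 alleles (0.28 ± 0.07).

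Among hepcidin and iron uptake genes, the setting in which Tmprss6 is known, 5 of 16 were lower and 2 higher. Bmp2, a ligand that induces hepcidin in liver, fell from 8.62 ± 0.89 to 5.21 ± 0.761 CPM (-0.73 ± 0.08, edgeR adjusted p = 9.34e-10). Acvr1, a receptor of such ligands, fell by 0.31 ± 0.03 and Fth1, the ferritin heavy chain, by 0.21 ± 0.05 on the log2 scale. The symbol Fth1 has 2 rows, of which the 1 that passed the filter (ENSMUSG00000024661) was used. Of 6 related membrane serine proteases, 2 fell (Tmprss9, -0.44 ± 0.10, and Tmprss4, -0.94 ± 0.23, the latter at 0.704 ± 0.211 CPM in wild-type mice) and Tmprss5 rose (0.47 ± 0.14). At 1 and 0 Msh6 alleles Tmprss4 (-0.52 ± 0.24 and -0.34 ± 0.23) and Tmprss5 (0.30 ± 0.15 and 0.24 ± 0.14) were not called.

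Of 11 genes with von Willebrand A domains, 2 rose and 1 fell. Vwa5b2 rose from 13.3 ± 2.44 to 26.0 ± 3.95 CPM (0.96 ± 0.09, edgeR adjusted p = 1.74e-12), and Cacna2d1, a calcium channel subunit, by 0.25 ± 0.03, while Cacna2d3 fell (-0.35 ± 0.03). Of 4 clade B serpins tested, 0 were called, while at 1 and at 0 Msh6 alleles 1 of the 4 was called lower (list medians -0.15 and -0.25). Serpinb1a had 10.1 ± 1.7 CPM in wild-type and 8.97 ± 1.58 CPM in Q140 striata (-0.17 ± 0.11, edgeR adjusted p = 0.239). In cortex, Q140 against wild type called 0 genes of these 9 lists (0.017% of all genes), and so did Q140 Msh6-/- against Msh6-/- mice (0.136%). In Q140 Msh6+/- against Msh6+/- cortex (0.193%) Slc4a10 was lower (-0.15 ± 0.03, edgeR adjusted p = 0.0271) and Vwa8 higher (0.12 ± 0.03, edgeR adjusted p = 0.0453).

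Some reads of these genes could come from others. Exonic bases of Vwa7 overlap those of Sapcd1, on the opposite strand, over 12.68% of its length, and 10.73% of its 50-base stretches occur elsewhere. Sapcd1 had 0.134 ± 0.0705 CPM in wild-type and 0.226 ± 0.139 CPM in Q140 striata, far below Vwa7. Serpinb1b shares 3.09% of its 50-base stretches with Serpinb1a and Serpinb1c. Serpinb1a had 10.1 CPM in wild-type and 8.97 CPM in Q140 striata, against 5.15 and 1.78 CPM for Serpinb1b. The shared part therefore does not bound the error of the Serpinb1b level, which was not measured. Serpinb1c had 0 reads in both wild-type and Q140 striata. The overlap of Atp6v1c2 with Pdia6 covers 2.3% of its exonic bases. Whether strand was used in the counting is not given in the sources used here.

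Projection neuron markers moved with the 8 genes. Their sum was 12300 to 13600 CPM in striata with Q140 and 19300 to 24300 CPM in striata without it, and 16 of 18 were called lower, 1 (Tac1) higher, with a median log2 fold change of -0.63 in Q140 against wild-type mice. The largest fall among them, Penk at -1.30 ± 0.04, was smaller than that of each of the 8. The 8 were chosen for the size of their falls, so this order was nearly fixed beforehand. Pdyn, the prodynorphin gene, had -0.19 ± 0.10 (edgeR adjusted p = 0.145). Astrocyte markers summed to 3460 to 4130 CPM with Q140 and 4060 to 4830 CPM without it (5 of 10 lower), microglial markers to 345 to 404 and 383 to 466 CPM (7 of 8 lower). For scale, 14.2% of all genes were called lower and 15.5% higher in Q140 against wild-type striatum. Calls and medians are of that contrast unless another is named, while the sums cover all mice with and all mice without Q140. Endothelial and mural markers summed to 254 to 299 and 298 to 357 CPM (3 of 8 lower). Oligodendrocyte markers summed to 4490 to 6570 and 5440 to 8020 CPM (2 of 9 lower, median log2 fold change 0.03). Of oligodendrocyte precursor markers 0 of 5 were called, and interneuron markers summed to 344 to 406 and 362 to 447 CPM (2 of 8 tested lower). Markers of cortical glutamatergic neurons went the other way, with 4 of 9 tested higher and 1 lower and a median log2 fold change of 0.18. Ependymal markers had a median of 0.43 and blood markers one of 1.66, with 0 called in either list, and the blood sum ran from 0 to 19.7 CPM with Q140 and from 0 to 53.9 CPM without it. In Q140 Msh6-/- against Msh6-/- mice 4 of 4 choroid plexus markers were higher (median 2.68), and 1 of 4 without mouse 21-3 (median 0.25). Called lower at 1 and 0 Msh6 alleles were 6 and 4 of 10 astrocyte, 5 and 6 of 8 microglial and 7 and 4 of 8 endothelial markers. For oligodendrocytes it was 5 and 6 of 9 (medians -0.18 and -0.21). Precursors had 2 and 2 of 5 lower, and interneurons 2 and 4 of 8. Over all genes 14.9% and 15.2% were called lower there. The part of these marker shifts in the falls of the 8 genes was not tested.

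The genes named here as most like 7 of the 8 across the 48 striatal libraries all had negative log2 fold changes in Q140 against wild-type striatum. Likeness is Pearson's r of log2 CPM over 12500 genes, and since the libraries form a Q140 and a non-Q140 set it follows that split. Cpne9 was most like Rgs4 (r = 0.98) and Scn4b (0.97), Vwa7 like Ppp4r4 and Adcy5 (0.96 each), and Mas1 like Ppp1r1a (0.97) and Plk5 (0.95). Slc4a11 was most like Trank1 and Ppp1r1a (0.97 each), Sec14l3 like Abi3bp and Sept5 (0.96 each) and Serpinb1b like Kcnh3 and Tns1 (0.93 each). Tmprss6, nearest to Meis2 (0.86), had a looser match. Scn4b and Adcy5 are in the list of projection neuron markers.

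After genotype and sex were taken out, the residuals of the 8 genes were at most loosely related between mice. Low counts, such as 4 to 29 reads of Tmprss6 per Q140 striatum, add noise that weakens r. Whether the 8 vary together therefore cannot be told from these values. Over the 28 pairs r ran from -0.49 (Atp6v1c2 with Tmprss6) to 0.46 (Sec14l3 with Serpinb1b), with a median of 0.1, and 11 pairs were negative. Without mouse 21-3 the range was -0.48 to 0.52. Over all 48 libraries the residuals of Sec14l3 were most like those of Krt77 (0.78) and Abi3bp (0.75), the 8 left out. Abi3bp was also the nearest such gene to Serpinb1b (0.6). These values describe 48 libraries that share depth and dissection.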

How the data were processed

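Bulk RNA-seq libraries of striatum and cortex were analysed. RNA came from RNeasy kits and libraries from a stranded TruSeq protocol, per the labels. The tools were STAR 2.7.5c, SAMtools 1.10 and HTSeq 0.12.3 with GRCm38, per the submitters' processing notes. The authors deposited integer counts per gene and FPKM values. The FPKM equal the counts over a fixed length per gene and the column total (34661 of 34661 genes, within 1%), so they hold no scaling beyond depth. Totals were 12.4 to 21.1 M counts in striatum (median 18.7) and 16.7 to 22.9 M counts in cortex (median 20.3).

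Groups come from the sample titles. The 8 genes and all lists were chosen with earlier results of these data known. Counts were fitted per tissue with edgeR 4.0.16 (R 4.3.3) quasi-likelihood, TMM scaling, filterByExpr (minimum count 10, minimum total 15) and terms for 6 genotypes and sex; p-values were Benjamini-Hochberg adjusted over all genes, with a threshold of 0.05. Tissues were compared in 1 fit of 96 libraries. The error after ± is the SE of a log2 fold change or the SD of CPM between mice. P-values weigh an effect against the spread between mice. The main fit of the tissues had no term for the animal, so it treated both libraries of a mouse as independent. The procedure was tested on simulated data for 1 comparison only, Q140 against wild-type cortex. The counts were drawn from the model that edgeR assumes, with changes put only into genes averaging 10 or more counts. The other comparisons were not simulated.

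Cortex and striatum of 1 animal were paired by animal number. Over 16806 genes the residuals of an animal's tissues had a median r of 0.145, against -0.004 for other animals. Alternatives were DESeq2 1.42.0, RLE scaling, a fit without the sex term, no filter, the 2 groups alone, limma-trend (3.58.1) on log2 FPKM plus 0.1 (mean FPKM at least 0.1), an adjusted p of 0.1 and the animal as a replicate block. Added after seeing the data were the animal number prefix, whose meaning is not stated, as a covariate and the omission of mouse 21-3.

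The rule was to name all 8 genes in each comparison; where not all are named, the text gives counts or ranges over them. Of each family list up to 3 called members with the smallest adjusted p are named, plus Atp6v0a2, Atp6v1c1, Serpinb1a, Slc4a10 and Vwa8 in cortex, Penk, Tac1 and Pdyn, chosen after their values were seen. For likeness up to 2 genes with the highest r are named (those of Atp6v1c2 are not reported here), predicted genes left out, among genes whose log2 CPM averages 1 or more.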

Additional observations from a re-analysis of the deposited data

Results flagged for a closer look

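Of 81 groups of 8 mice with at least 10 reads in their highest library, 6 held a mouse far from the others, and chance alone puts about 1 in 20 groups there. In Msh6+/- striatum mouse 26-3 was high for Cpne9 (22.5 CPM, others 13.6 to 17.7) and for Tmprss6 (5.87 CPM, others 1.9 to 3.15). In Q140 Msh6-/- striatum mouse 21-3, the library with choroid plexus markers, had 3.04 CPM of Serpinb1b (others 1.25 to 1.87). In cortex, mouse 21-5 (Q140 Msh6+/-) had 3.32 CPM of Slc4a11 (others 1.72 to 2.21). Serpinb1b stood at 0.75 CPM in the Msh6+/- cortex of mouse 22-1 (others 0.0909 to 0.368) and at 0.58 CPM in the Msh6-/- cortex of mouse 33-3 (others 0.145 to 0.316). The cause was not tested.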

How the results depend on the processing

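The summary over the 8 genes (a count of calls, or a median for the striatal Q140 effect) was compared with its alternatives 163 times, and stayed within the limits set for it (1.5 times for a count, 1 SD between mice for a median). Most counts were 0 or covered all genes tested, where little can change. With the animal as a replicate block the tissue comparisons gave 8 calls each, as without it; 3 of the 8 genes are in that fit only through striatum, and the Q140 striata chose the genes, so this adds no support. For single genes 458 values were compared. Tested ones kept direction and call, and 1 striatal Q140 value moved by more than 1 SD between mice (0.34 on the log2 scale). It was Cpne9 in Q140 Msh6-/- against Msh6-/- striatum, which moved from -2.33 to -1.98 on the log2 FPKM scale. That scale adds 0.1, which understates changes of low genes, and has no TMM scaling. The median of all genes in this contrast was 0.083 on it and 0.016 in the main fit. The share of each in the move was not tested. Without mouse 21-3, Serpinb1b in Q140 Msh6-/- against Msh6-/- striatum was -1.70 in place of -1.51.

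Over all genes RLE scaling called 2440 higher and 2646 lower in Q140 against wild-type striatum. In cortex, Q140 against wild type gave 3 higher and 0 lower, against 0 and 8 with DESeq2, 4 and 3 with the animal prefix, and 1 and 0 with only the 2 groups. On FPKM, 2 copines were called higher, and V-ATPase genes called higher numbered 15 of 19, hepcidin and iron genes 5 of 16 and renin-angiotensin genes 5 of 14. Depth limits the cortical values of Sec14l3, Tmprss6, Serpinb1b and Atp6v1c2.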
